A study of Mus musculus with 24 samples.

Results

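The 24 hippocampal RNA libraries of the series fell far apart in transthyretin (Ttr) mRNA, and they are compared here as a Ttr-rich set and a Ttr-poor set. Ttr encodes a carrier of thyroid hormone and retinol that the epithelium of the choroid plexus makes in great amount. The sets were chosen by the measured level of Ttr alone, in CPM, counts scaled to a common library total: a library at 100 CPM or more was called rich, and one under 100 CPM was called poor. This gave 14 rich and 10 poor libraries of 24 in all. The sets are no treatment and no label of the study, so the level of Ttr is given as a description, with no test.

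The libraries came from the hippocampi of 24 male C57BL/6J mice, 8 to 12 weeks of age, 1 library a mouse. The 12 WT and 12 Tob-KO mice were taken without training (naive) or at 15 min, 1 h or 3 h after fear conditioning. This training pairs a context and a tone with foot shocks. Each of the 8 groups held 3 mice. Tob-KO mice came from a previously described knockout line of the anti-proliferative gene Tob, named Tob1 in the count table. Each library held 28847989 to 41595972 gene counts.

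The choroid plexus is a frond of tissue that floats in each brain ventricle, and in the lateral ventricle it lies against the hippocampus. Its cuboidal epithelium moves sodium, chloride, bicarbonate and water from the blood side to the ventricle, which makes cerebrospinal fluid, and it secretes carrier proteins, growth factors and enzymes into that fluid. The ventricle wall beside it is lined by ependyma, whose cells carry motile cilia. In a bulk library, fewer cells of a type and less RNA per cell cannot be told apart.

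Ttr was never near the limit. In the 10 poor libraries it ranged from 3.67 to 35.9 CPM with a median of 19.7, and in the 14 rich libraries from 581 to 4229 CPM with a median of 1956. The highest poor library, Tob-KO naive replicate 1 at 35.9 CPM, and the lowest rich library, WT naive replicate 2 at 581 CPM, were 16.2-fold apart. No library lay between them, so any limit in that gap would give the same sets.

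Both sets occurred in 6 of the 8 groups. WT naive had 2 rich libraries (2128 and 581 CPM of Ttr) and 1 poor one (16.9), WT 1 h had 2021, 824 and 23.3, and WT 3 h had 1850, 2420 and 17.0. Tob-KO naive had 4229, 1981 and 35.9, Tob-KO 15 min had 2894, 1103 and 29.2, and Tob-KO 3 h had 1 rich library at 1759 and 2 poor ones at 24.6 and 22.5. The other two groups held 1 set each. All 3 WT libraries of 15 min were poor, at 3.67, 13.7 and 16.6 CPM, and all 3 Tob-KO libraries of 1 h were rich, at 1871, 1930 and 2734 CPM.

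**Figure D1:**
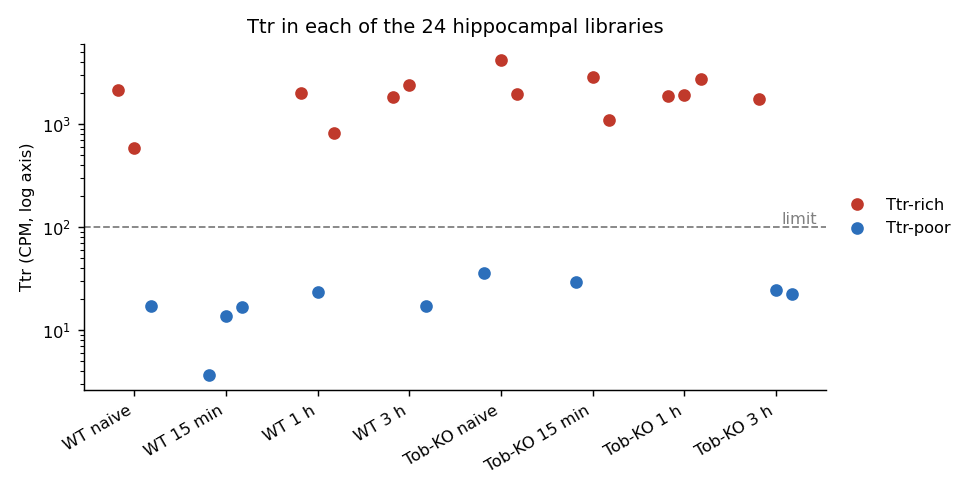
Ttr in CPM on a log axis for each of the 24 libraries, 3 points for each group on the horizontal axis, red for the 14 Ttr-rich and blue for the 10 Ttr-poor libraries, with the limit of 100 CPM dashed. No point lies between 35.9 and 581 CPM, all 3 WT points at 15 min are blue and all 3 Tob-KO points at 1 h are red.

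Both sets occurred in both genotypes. Of 12 Tob-KO libraries 8 were rich, and of 12 WT libraries 6 were rich. With the limit at 1000 CPM the rich libraries were 8 of 12 and 4 of 12. Rich and poor libraries were alike in depth, at 28847989 to 41595972 and 28985355 to 39829648 counts. They were also alike in the number of genes with a count, at 22535 to 23632 and 22861 to 23507. Tob1, the targeted gene, was at 33.9 to 44.5 CPM in the WT libraries and at 52.1 to 68.3 CPM in the libraries labelled Tob-KO, with no overlap and a direction opposite to a loss of the transcript. It did not separate the Ttr sets (log2 fold change 0.03 ± 0.04 SE, adjusted p = 0.884).

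To see which other genes went with Ttr, the sets were compared over 19499 genes with the 8 groups as a covariate, by the quasi-likelihood test of edgeR, and p-values were adjusted over all genes after Benjamini and Hochberg. Fold changes are rich against poor, and levels are CPM scaled by TMM, a correction of the library size. At an adjusted p of at most 0.05 and a change of at least 2-fold, 229 genes were higher in the rich libraries, 1.17% of those tested, and 0 were lower (0%). Without the fold limit 608 genes were higher (3.12%) and 7 were lower (0.0359%), and 2063 genes had an unadjusted p under 0.05. Over all genes the median log2 fold change was -0.006. Without Tob-KO naive replicate 1, the poor library with the most Ttr, 404 genes in both directions passed the test without the fold limit, against 615 with it.

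At 2-fold the calls were all higher in rich libraries, and many were very large. The 229 genes had a median log2 fold change of 1.92, and 61 genes exceeded 3. Most were nearly silent in the poor set, where 153 of the 229 had a mean under 1 CPM and 10 had a mean of 10 CPM or more. In 175 of the 229 (76.4%) every rich library exceeded every poor library of its group in all 6 groups that held both sets, against 425 of all genes tested (2.18%), and 93 of the 229 had all 14 rich above all 10 poor libraries, against 115 (0.59%) of all. The test used the same libraries, so these counts describe the called genes. In GENCODE's annotation, 202 of the 225 called genes that matched a single gene type (89.8%) were protein coding, against 81.3% of all matched genes tested.

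Nearly all listed transport genes of the epithelium were called higher in rich libraries. This and the other marker lists were chosen with earlier results of these data known, so their counts are a description. Over all genes 3.12% were called higher, and 1.17% by at least 2-fold. Of a list of 22 genes for ion, water and solute transport by choroid plexus epithelium, 20 were higher in rich libraries and 0 lower, 13 of them by at least 2-fold, with a median log2 fold change of 1.30 and no test of the list. Slc4a5, a sodium bicarbonate cotransporter (chr6:83219828-83304945 in GRCm38, forward strand), was at 0.0584 to 0.523 CPM in the poor set (median 0.328) and at 6.27 to 48.1 CPM in the rich set (median 24.9). Its sets did not overlap, and the log2 fold change was 5.98 ± 0.42 (SE, adjusted p = 9.77e-09). Kcne2, a potassium channel subunit, ranged from 0.0624 to 0.304 CPM in poor and from 4.05 to 24.6 CPM in rich libraries, again without overlap (log2 fold change 5.76 ± 0.40, adjusted p = 9.77e-09).

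Aqp1, the water channel of the epithelium's ventricular face (chr6:55336432-55348555, forward strand), was at 0.385 to 0.795 CPM in poor libraries, median 0.513. In rich libraries it was at 5.85 to 38.9 CPM, median 20.7, so that the lowest rich library stood well above the highest poor one (log2 fold change 5.16 ± 0.39, adjusted p = 3.48e-08). Folr1, the folate receptor that loads folate into the cerebrospinal fluid (chr7:101858331-101870788, reverse strand), was at 0.497 to 1.06 CPM in poor and 5.72 to 40.4 CPM in rich libraries (log2 fold change 4.40 ± 0.36, adjusted p = 8.45e-08). Clic6, a chloride channel family member, was the most abundant gene of the list with a change over 10-fold. It went from 1.05 to 6.31 CPM in the poor set to 22.6 to 152 CPM in the rich set. Slc16a8, a lactate carrier, had at most 6 counts in any poor library and 0.771 to 10.3 CPM in the rich ones, so its fold change is imprecise.

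Transporters with a high level in the poor set changed less. Slc12a2, the sodium-potassium-chloride cotransporter, had the highest mean level among the called genes of the list. It was at 99.7 to 121 CPM in poor and 121 to 201 CPM in rich libraries (log2 fold change 0.43 ± 0.07, adjusted p = 0.000224). Its sets met at 121 CPM, while in each of the 6 groups with both sets every rich library was above every poor one. Slc4a2, an anion exchanger, moved from 31.5 to 36.5 CPM to 49.2 to 127 CPM without overlap, a log2 fold change of 1.17 ± 0.13 (adjusted p = 3.37e-06). Slco1c1, an organic anion carrier that takes up thyroxine, rose by 0.62 ± 0.09 on the log2 scale (adjusted p = 0.000104). Atp1b1, a sodium pump subunit, was at 1660 to 1880 CPM in poor and 1660 to 1910 CPM in rich libraries, and Slc26a11 was also not called.

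**Figure D2:**
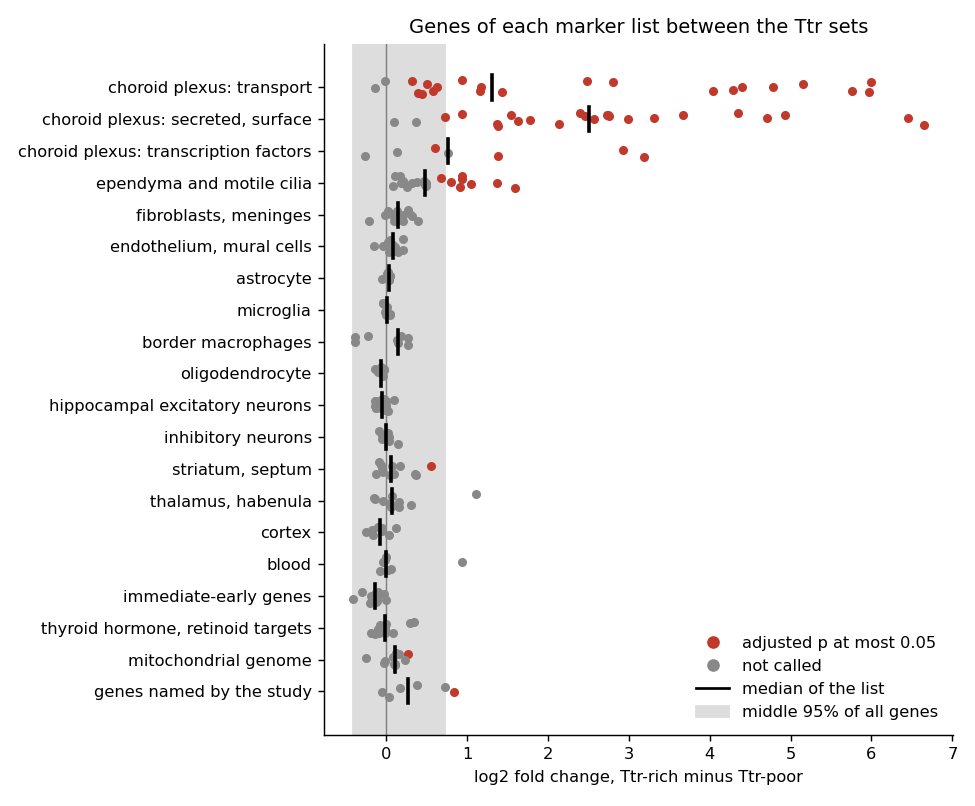
Log2 fold change of Ttr-rich minus Ttr-poor libraries (horizontal axis) for every tested gene of 20 marker lists (rows), red where the adjusted p is at most 0.05 and grey otherwise, with the median of each list as a black bar and the middle 95% of all genes, -0.41 to 0.73, shaded. Red points fill the 3 choroid plexus lists, reaching 6.65, and part of the cilia list, and 3 are found in all other lists.

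The secreted and surface proteins of the epithelium showed the strongest differences. Of 24 genes 22 were higher and 0 lower, 20 by at least 2-fold, with a median log2 fold change of 2.51. Mfrp, a membrane protein related to the Frizzled receptors, and Tmem72, a transmembrane protein, led the list at 6.65 ± 0.45 and 6.46 ± 0.43 on the log2 scale (adjusted p = 9.62e-09 for each). Mfrp was at 0.0292 to 0.359 CPM in poor and 7.91 to 64.1 CPM in rich libraries. Tmem72 was at 0.117 to 0.928 CPM in poor and 10.6 to 79.3 CPM in rich libraries. F5, coagulation factor V, and Cldn2, a tight junction protein of leaky epithelia, had log2 fold changes of 4.93 ± 0.34 and 4.70 ± 0.38.

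The most abundant called genes of the list encode secreted or shed factors. Enpp2, autotaxin, which makes lysophosphatidic acid (chr15:54838901-54952892, reverse strand), was at 160 to 213 CPM in poor libraries, median 182. It was at 516 to 2310 CPM in rich libraries, median 1300, a log2 fold change of 2.74 ± 0.22 (adjusted p = 7.31e-08). Kl, the anti-ageing factor Klotho (chr5:150952607-150993817, forward strand), was at 17.7 to 26.4 CPM in poor and 50.5 to 246 CPM in rich libraries (log2 fold change 2.45 ± 0.23, adjusted p = 5.76e-07). Ace, the angiotensin-converting enzyme, was at 10 to 19.9 and 32.4 to 153 CPM (log2 fold change 2.40 ± 0.25, adjusted p = 2e-06). None of these 3 overlapped between the sets.

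Igf2, the insulin-like growth factor of choroid plexus and meninges, did overlap. It was at 28.8 to 86.8 CPM in poor and 58.8 to 240 CPM in rich libraries (log2 fold change 1.38 ± 0.23, adjusted p = 0.000729), and in the WT libraries alone it did not pass (log2 fold change 1.09, adjusted p = 0.123). Cdhr4 and Cdh1 were the 2 genes of the list that were not called, at log2 fold changes of 0.09 ± 0.20 and 0.36 ± 0.42.

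Of 7 transcription factors listed for the epithelium, 4 were higher and 0 lower, with a median log2 fold change of 0.76. Otx2, the homeobox factor required for choroid plexus formation (chr14:48657677-48673819, reverse strand), was at 0.281 to 1.87 CPM in poor and 4.66 to 29.0 CPM in rich libraries. Its sets did not overlap (log2 fold change 3.18 ± 0.33, adjusted p = 2.24e-06). Lmx1a, a factor of the roof plate from which the plexus forms, changed by 2.93 ± 0.38 on the log2 scale (adjusted p = 4.11e-05), at no more than 12 counts in any poor library. Msx1, another homeobox factor, went from 3.86 to 7.46 CPM in the poor set to 8.42 to 24.9 CPM in the rich set (log2 fold change 1.39 ± 0.17, adjusted p = 2.68e-05). Msx2, Zfp423 and Lmx1b were not called.

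Because these genes moved together and Otx2 is among them, the 250 bases before the annotated starts were searched for TAATCC, the core that OTX2 binds, on both strands (as TAATCC or GGATTA). RefSeq starts were at hand for 31 of the 36 genes of the 3 choroid plexus lists that were called at 2-fold. Of these, 3 held the core in at least 1 window (9.68%), against 825 of the 12786 genes tested that had a start (6.45%). The 3 sites are shown on the gene's strand with 12 bases on each side and the core in capitals, from GRCm38.p6. A match of letters is not a binding site. The Mfrp site is chr9:44101624-44101653 (forward strand), 128 bases before the start, the Otx2 site is chr14:48665303-48665332 (reverse strand), 205 bases before an alternative start inside the annotated gene, and the Ace site is chr11:105967909-105967938 (forward strand), 21 bases before.
Mfrp: ctcagctgagttGGATTAaggaccattccg
Otx2: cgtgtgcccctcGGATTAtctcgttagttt
Ace: ggctgggttttaTAATCCgcagggcggtcg

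Some genes of motile cilia were called higher in rich libraries too, by less and with overlap of the sets. Of 21 tested genes of ependyma and motile cilia, 8 were higher and 0 lower, 3 by at least 2-fold, the median log2 fold change was 0.48, and all 21 were above 0. Their summed level was 44.9 to 98.6 CPM in poor and 77.7 to 138 CPM in rich libraries. Spag16, a protein of the ciliary axoneme, was at 0.624 to 2.08 CPM in poor and 1.89 to 6.79 CPM in rich libraries (log2 fold change 1.60 ± 0.24, adjusted p = 0.000211). Pifo and Cfap126, both needed for cilia, had log2 fold changes of 1.36 ± 0.24 and 1.05 ± 0.17.

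Rsph1 of the radial spoke, Cfap43, the dynein heavy chain Dnah11 and the tektin Tekt1 were the most abundant called genes of the cilia list. Their log2 fold changes were 0.80 ± 0.16, 0.68 ± 0.14, 0.91 ± 0.20 and 0.93 ± 0.19, with adjusted p from 0.00393 to 0.00763. Foxj1, the master factor of motile cilia, was at 7.95 to 16.2 CPM in poor and 14.7 to 29.9 CPM in rich libraries (log2 fold change 0.61 ± 0.13, adjusted p = 0.00745). Large axonemal genes such as Dnah5 (0.11 ± 0.08) and Hydin (0.48 ± 0.18) were not called. The cilia list had 4 called genes in WT libraries alone, with a median log2 fold change of 0.79, and 0 in Tob-KO libraries alone, with a median of 0.14. The test of a difference between the genotypes called 0 genes over the whole table, and 143 without a filter beyond 1 count.

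**Figure D3:**
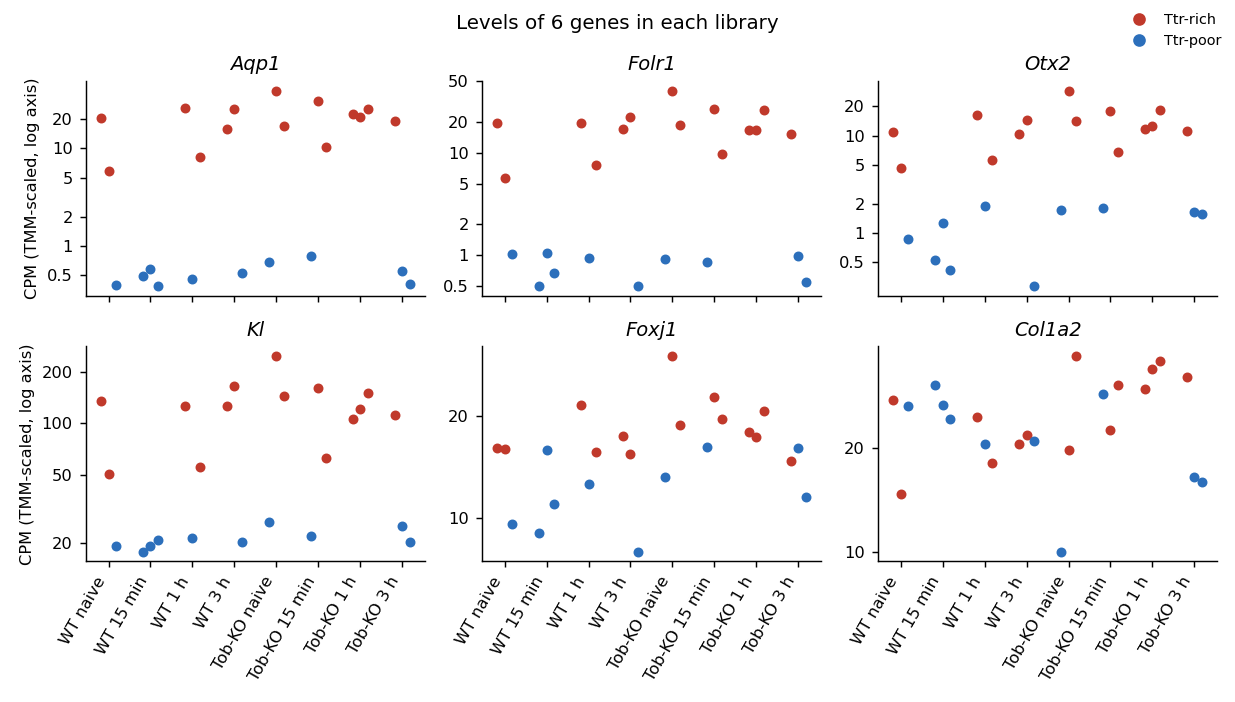
Level in CPM (TMM-scaled, log axes with their own ranges) of Aqp1, Folr1, Otx2, Kl, Foxj1 and Col1a2 in each library, 3 points a group, red for Ttr-rich and blue for Ttr-poor. Red and blue do not meet for the first 4 genes, they overlap for Foxj1, and for Col1a2, a fibroblast collagen, they are mixed.

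Lists for other cells of the choroid plexus and its borders held no called gene. With 3.12% of all genes called higher and 0.0359% lower, 0 calls say little in lists this short. Fibroblasts of the meninges and of the plexus stroma, endothelium and mural cells, and macrophages of the brain borders had 0 called genes of 17, 15 and 8, and median log2 fold changes of 0.15, 0.08 and 0.14. The summed fibroblast list was at 157 to 279 CPM in poor and 167 to 306 CPM in rich libraries. Its most abundant genes, Pdgfra and the proteoglycan Dcn, had log2 fold changes of 0.06 ± 0.04 (adjusted p = 0.689) and 0.13 ± 0.19 (adjusted p = 0.912). Col1a2, a collagen chain, was at 10 to 30.5 CPM in poor and 14.7 to 36.9 CPM in rich libraries (log2 fold change 0.32 ± 0.18, adjusted p = 0.617). The summed endothelial list was at 333 to 568 and 313 to 444 CPM.

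The cells of the hippocampus itself gave 0 called genes in 6 lists. Over all genes 3.12% were called higher and 0.0359% lower, so 0 calls in lists of this size say little by themselves. Astrocytes, microglia, oligodendrocytes, hippocampal excitatory neurons and inhibitory neurons had median log2 fold changes of 0.03, 0.00, -0.06, -0.05 and 0.00 over 10, 10, 10, 15 and 10 genes. The glutamate transporter Slc1a2 was at 2840 to 3370 CPM in poor and 2700 to 3260 CPM in rich libraries, and the neuronal kinase Camk2a at 3580 to 4310 and 3410 to 4560 CPM. In these lists of cells, in the same order, 9, 5, 0, 2 and 5 genes were above 0. The median over all genes was -0.006, and the share of all genes above 0 was not counted for this fit. Immediate-early genes of neuronal activity had a median of -0.14 over 13 genes, none of which was above 0. The synaptic effector Arc was at -0.42 ± 0.13 (adjusted p = 0.119), but it passed in 4 alternatives. These were the 6 groups that held both sets alone (-0.42, adjusted p = 0.0361), the fit without WT 15 min replicate 1 (adjusted p = 0.0276) and a continuous Ttr term (adjusted p = 0.0271). The last was no filter beyond 1 count (-0.418, adjusted p = 6.94e-28), where the fold change was nearly that of the main fit. That fit also called many more genes between the genotypes, so its p-values are to be read with caution. In the remaining alternatives Arc did not pass. Egr1, another early gene, was at -0.12 ± 0.14 (adjusted p = 0.876) and passed without a filter beyond 1 count (adjusted p = 0.0317).

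Neighbouring brain regions were also near 0. Lists for thalamus and habenula, neocortex and blood had 0 called genes of 11, 8 and 7, with medians of 0.06, -0.08 and -0.01. So few genes were called over the whole table (3.12% higher, 0.0359% lower) that 0 calls say little here. In the list for striatum and septum 1 of 12 genes was called, Ppp1r1b, the dopamine-regulated phosphatase inhibitor DARPP-32. It was at 41.9 to 51.1 CPM in poor and 48.4 to 93.5 CPM in rich libraries (log2 fold change 0.55 ± 0.09, adjusted p = 0.000907), while the list's median was 0.06. Of 12 mitochondrial genes mt-Co2 was called (0.27 ± 0.07, adjusted p = 0.0301). Targets and carriers of thyroid hormone and retinoids, the cargo of Ttr, had 0 called genes of 14 and a median of -0.02.

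Outside the lists 190 of the 229 genes remained. Those with the largest changes at a mean of 1 CPM or more were Prr32, Sult1c2, Wdr72, Wdr86, Cdh3, Oca2, 1500015O10Rik, Abca4, Slc24a5, Tc2n, Rbm47 and Col4a3, with log2 fold changes from 4.92 to 2.72, and all had their 14 rich above their 10 poor libraries. Prr32, a proline-rich protein, was at 0 to 0.253 CPM in poor and 1.67 to 11.6 CPM in rich libraries (log2 fold change 4.92 ± 0.41). The transcript 1500015O10Rik, which encodes a secreted peptide precursor, was at 1.59 to 2.58 and 7.59 to 48.3 CPM (3.59 ± 0.28). Oca2 and Slc24a5, transporters of pigment organelles, are best known from the pigmented cells of the eye and skin. Abca4, a retinoid flippase, Oca2 and Slc24a5 had log2 fold changes of 3.26 ± 0.30, 3.74 ± 0.38 and 3.12 ± 0.29. Col4a3, a collagen chain of epithelial basement membrane, had 2.72 ± 0.34.

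The 7 genes lower in rich libraries changed little. Hectd2, a ubiquitin ligase, was at 22.9 to 60.8 CPM in poor and 16.1 to 60.9 CPM in rich libraries (log2 fold change -0.40 ± 0.10, adjusted p = 0.025), and its sets overlapped along their whole length. B130034C11Rik had -0.50 ± 0.12 (adjusted p = 0.0165). Vps37b, Gm21092, Tnrc6c and Dpf1 had -0.19, -0.17, -0.16 and -0.14, and the last of the 7, Gm17203, named here after its value was seen, was at a mean of 0.274 CPM. Of the first 6, 5 did not pass without group terms, and Hectd2, Vps37b, Gm21092 and Dpf1 did not pass with a replicate block (adjusted p = 0.0536 to 0.0557). With that block 2 genes in all were lower, against 7.

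Within each group that held both sets the choroid plexus genes gave the same picture. The ratio of the rich mean to the poor mean was 25.8 to 40.7 for Aqp1, 12.5 to 39.8 for Folr1, 5.11 to 9.08 for Enpp2 and 4.23 to 7.37 for Kl over the 6 groups. For Otx2 it was 5.84 to 44.5. It was 1.07 to 2.06 for Foxj1, lowest in Tob-KO 3 h, and 0.798 to 2.83 for Col1a2, which was below 1 in WT naive. Slc13a4, a sulfate carrier, had ratios from 1.43 in WT naive to 9.98 in Tob-KO naive, whose poor library was at 3.33 CPM, the lowest of all. Igf2 and Col1a2 were also lowest of all in that library, at 28.8 and 10 CPM.

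The summed level of the called genes scaled with Ttr across the rich libraries. The summed excess of the 229 genes over their poor mean, divided by the excess of Ttr, was 1.11 to 1.39 with a median of 1.27 over the 14 rich libraries, while Ttr itself spanned 7.28-fold. With Ttr, the excess made up 0.12% to 0.922% of the library, median 0.451%. All these values share the library and its total, and the 229 genes were called on the same libraries, so this is a description without a test. Folr1 kept the most even ratio of the list genes called at 2-fold, 0.826 to 0.951 CPM for each 100 CPM of Ttr. Enpp2 held 50.6 to 62.5, a large part of the summed excess, so the even ratio of the sum is in good part that of Enpp2. Slc13a4 (0.0413 to 1.08), Igf2 (-0.459 to 6.05), Cldn1 (0.129 to 0.593) and Cldn3 (-0.014 to 0.0668) did not keep a steady ratio to Ttr. For Igf2 1 rich library was below the poor mean, and Cldn3 also fell below its own. The 3 cilia genes Spag16, Pifo and Cfap126 varied about 3-fold in their ratio, by 2.93, 3.15 and 3.01 times.

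**Figure D4:**
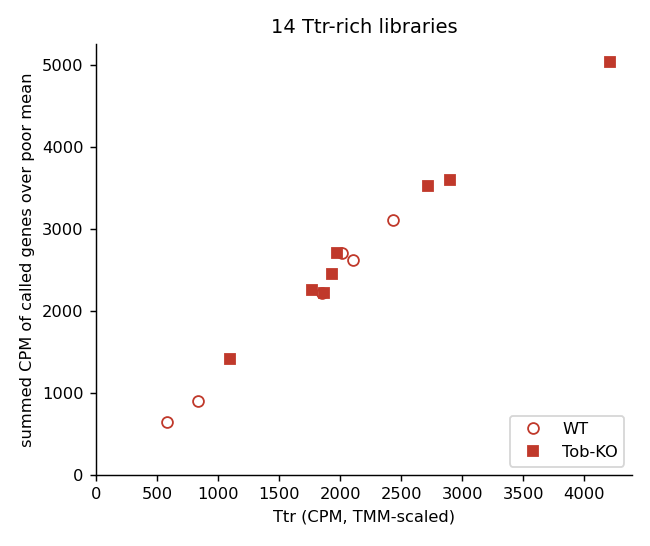
Summed CPM of the 229 called genes over their mean in the poor libraries (vertical axis) against Ttr in TMM-scaled CPM (horizontal axis) for the 14 Ttr-rich libraries, open circles for WT and filled squares for Tob-KO, both axes from 0. The points lie near a line from the origin, from 642 at 579 CPM of Ttr upward.

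In each genotype on its own nearly every gene called at 2-fold was higher in rich libraries, and the called genes were shared in part. In the 12 WT libraries 105 genes were called higher at 2-fold (0.554% of those tested) and in the 12 Tob-KO libraries 163 (0.862%). The exception was Rbp3, 1 gene lower in the rich WT libraries (log2 -2.43, adjusted p = 0.0267), named after its value was seen. The genotypes share no library. Of 18536 genes tested in both, 88 were called in both, 83.8% of the WT calls and 54.7% of the Tob-KO calls. All 105 WT calls were higher in the rich set of Tob-KO libraries, where their median log2 fold change was 2.49, and all 161 Tob-KO calls that could be compared were higher in the rich set of WT libraries, with a median of 1.76. Of all genes 51.9% were above 0 in Tob-KO and 46.1% in WT. The test of a different rich-poor change between the genotypes called 0 of 19499 genes (0%) by edgeR, 509 had an unadjusted p under 0.05, and DESeq2 also called 0. Without a filter beyond 1 count it called 143.

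The 15 min libraries were then left out of the fit, a choice made after the data were seen, and read with the calls from the other 18. Those gave 212 genes at 2-fold (1.1%). In 184 of the 212 (86.8%) both rich libraries of 15 min exceeded all 4 poor ones, against 9.72% of all genes. The 2 rich libraries were Tob-KO and 3 of the 4 poor ones WT, so genotype and set are partly the same there. Against the single poor Tob-KO library alone, both rich ones were higher in 200 of the 212. The share of all genes was not counted for that comparison, so the 200 cannot be set against it.

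Since WT 15 min was all poor and Tob-KO 15 min mostly rich, the comparison of genotypes at that time crosses the sets. At 15 min the 229 genes had a median log2 difference of 1.65 (libraries labelled Tob-KO minus WT), 177 of them beyond 1, and with the Ttr set as a term the median was 0.01, with 29 beyond 1. At 3 h, when 2 of 3 WT and 1 of 3 Tob-KO libraries were rich, the median went from -0.60 to 0.02, and at 1 h from 0.83 to 0.37. In naive mice, with 2 rich libraries in each genotype, it stayed at 0.89 and 0.78. There the rich WT libraries had 2128 and 581 CPM of Ttr and the rich Tob-KO ones 4229 and 1981, and the part of these levels in the remaining difference was not tested. The genes were called on these same libraries, so the drop is a description.

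**Figure D5:**
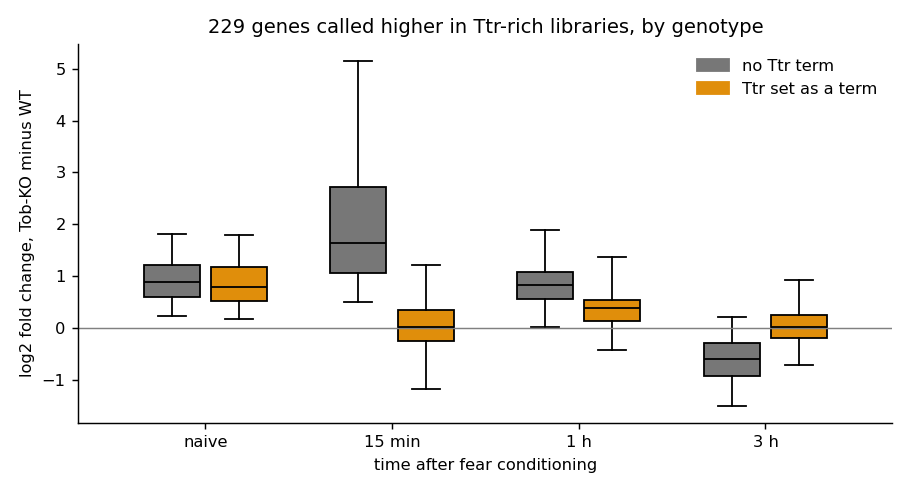
Log2 fold change of Tob-KO minus WT (vertical axis) for the 229 genes called higher in Ttr-rich libraries at each time (horizontal axis), grey without and orange with the Ttr set as a term, as boxes of the quartiles with the median and whiskers from the 5th to the 95th percentile. The grey median is 1.65 at 15 min and -0.60 at 3 h, and the orange medians there are 0.01 and 0.02.

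Single genes show the size of it. At 15 min Aqp1 had a log2 difference between genotypes of 4.84 ± 1.88 (adjusted p = 0.377) without the term and 0.27 ± 0.89 (adjusted p = 0.962) with it. Folr1 went from 4.09 ± 1.61 to 0.23 ± 0.76. Neither passed the test either way. Over all genes, the test with the term called 4 genes at 2-fold in naive mice (0.0205%), namely A830036E02Rik, Gm11940, Hectd2 and Krt12. It called 0 at 15 min (0%), where 1688 genes had an unadjusted p under 0.05 and DESeq2 called 3. It called 1 at 1 h (0.00513%), Gm11940, and 2 at 3 h (0.0103%), A830036E02Rik and Gm11940. The fit without the term called the same genes, and 0 at 15 min as well. These genes were named after the calls were seen. The study used another test, the exact test of edgeR, and reported its largest number of differing genes at 15 min. With the term but no filter beyond 1 count, 107, 92, 22 and 28 genes were called in naive mice, at 15 min, at 1 h and at 3 h.

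Among the genes that the study followed, Crhr2, a receptor of the corticotropin-releasing hormone family (chr6:55090049-55133016, reverse strand), went with the sets. It was at 1.17 to 3.30 CPM in poor and 2.84 to 6.44 CPM in rich libraries, with a small overlap (log2 fold change 0.84 ± 0.16, adjusted p = 0.00234). In all 6 groups with both sets its rich libraries were above the poor ones, by a ratio of means from 1.22 to 2.89, and in WT libraries alone it did not pass (0.81, adjusted p = 0.223). At 15 min its log2 difference between genotypes was 1.45 ± 0.41 (adjusted p = 0.278) without the Ttr term and 0.84 ± 0.29 (adjusted p = 0.432) with it.

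The other followed genes did not pass between the sets with the filter used. Mc3r, a melanocortin receptor, differed by a log2 value of 0.72 ± 0.38 (adjusted p = 0.53, and 0.0218 without a filter beyond 1 count) and Avpr1a, a vasopressin receptor, 0.17 ± 0.36 (adjusted p = 0.942). Between genotypes at 15 min, Mc3r differed by 3.184 ± 0.759 without and 2.615 ± 0.784 with the Ttr term (adjusted p = 0.229 and 0.404). Avpr1a differed by 1.547 ± 0.596 and 1.42 ± 0.655 (adjusted p = 0.376 and 0.562), so both differences stayed large with the term. Lcn2, the iron-carrier binder lipocalin 2, was at 0.0653 to 4.74 CPM in poor and 0.0282 to 0.926 CPM in rich libraries (log2 fold change 0.37 ± 0.60, adjusted p = 0.916). Its highest value, 4.74 CPM, was in WT 15 min replicate 3, a poor library. Its log2 difference between genotypes at 15 min was -3.90 ± 0.86 without and -4.15 ± 0.94 with the Ttr term, and neither passed (adjusted p = 0.229 and 0.309). The study used another test for its sequencing data, the exact test of edgeR. It also reported less Lcn2 mRNA by qRT-PCR in Tob-KO mice, naive and at 15 min, and less LCN2 protein at 15 min.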

How the data were processed

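Poly(A) RNA of the hippocampi was made into directional libraries with 8 PCR cycles and sequenced as 150-bp paired-end reads. In nf-core/rnaseq the authors aligned them with STAR 2.6.1d against GRCm38, and HTSeq 0.9.0 gave counts per gene. They deposited raw counts, whole numbers of reads for 47593 gene names by 24 libraries, not normalized. The annotation release and the strand setting are not given in the sources used here, so genes with overlapping, antisense or near-identical copies are uncertain. The columns of the count table are labelled markdup, for marked duplicates, but whether marked reads were counted is not given. Reads were counted without molecular identifiers. Of the names 27 were dates and were not assigned.

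Total counts were 28847989 to 41595972 a library, where 0.2 CPM is a handful of counts. Groups came from the sample titles. A chi-square between 2 count columns gave 3.68 to 22.8 per degree of freedom in the 24 pairs of the same group, so no pair looked like a single library. Genes with 0.2 CPM in 2 libraries were kept, and TMM factors were used. The fit was edgeR 4.0.16 (R 4.3.3), glmQLFit and glmQLFTest, with a term for each group and a term for the Ttr set. Limits were an adjusted p of 0.05 (Benjamini-Hochberg) and, where stated, 2-fold. Standard errors come from the same test. Ttr was left out of all counts of calls between the sets. The scripts were tested on simulated data.

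The sets, the marker lists and the rules were chosen with earlier results of these data known, the epithelial genes among them, and the lists come from general knowledge of the cell types. Named genes were, in each list, the 4 called genes of highest mean CPM (or the 2 highest if none was called). Outside the lists they were the 12 largest changes in each direction at a mean of 1 CPM or more, and the genes the study followed were always named. A gene that this rule names is not reported here. Further list genes were named after their values were seen. Alternatives were DESeq2 1.42.0, other scalings and filters, subsets of libraries, leaving out each library and a replicate block. Positions are 1-based from GENCODE vM21 and RefSeq windows (GRCm38.p6).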

Additional observations from a re-analysis of the deposited data

Results flagged for a closer look

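Among the 10 Ttr-poor libraries, 22 measures (the summed level of each marker list, depth and genes detected) were searched for a single library far from the rest by Dixon's ratio, and 4 had such a library. Chance alone gives one in about 1 of 20 groups. The list of secreted and surface proteins of choroid plexus was highest in Tob-KO 15 min replicate 1, at 447 CPM against 394 CPM in the next library. The blood list was highest in WT 15 min replicate 1, at 137 CPM against 80 CPM. In WT 15 min replicate 2 the astrocyte list was at 7762 CPM against 7151 CPM, and the transcripts of the mitochondrial genome at 35444 CPM against 29908 CPM. The study's own groups of 3 were too small for this search.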

How the results depend on the processing

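The count of 229 genes higher at 2-fold was 153 to 258 under the other scalings, filters, DESeq2, the left-out libraries between 100 and 1000 CPM of Ttr, the fit without group terms, the groups with both sets alone, the Tob-KO libraries alone and the fit without the 15 min libraries (added after the data were seen). It was 105 in the WT libraries alone, and 190 to 241 when 1 library was left out. The continuous Ttr term was run without the fold limit alone.

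Without a filter beyond 1 count, 960 genes passed without the fold limit, 3 were 2-fold lower, 143 differed between genotypes in the rich-poor change, and Tob-KO against WT gave 107 genes in naive mice, 92 at 15 min, 22 at 1 h and 28 at 3 h. The cause was not tested. DESeq2 called 1 gene in naive mice and 3 at 15 min. Without group terms 1 gene was 2-fold lower. Without the fold limit 133 genes passed in WT alone, where 1 was 2-fold lower, and 303 in Tob-KO alone, each fit with fewer samples.

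With each library left out in turn there were 404 to 693 genes without the fold limit, 0 to 2 genes lower at 2-fold, 3 to 8 genes between genotypes in naive mice (8 without Tob-KO naive replicate 3) and 0 to 2 at 1 h (0 without WT 1 h replicate 1, 2 without Tob-KO 1 h replicate 1).

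With the replicate block 217 genes were higher at 2-fold and 540 passed without the fold limit. Deviations of libraries of the same replicate number had a mean correlation of -0.0114 over 84 pairs, against 0.00565 for other numbers. Single pairs of the same number ran from -0.418 to 0.384, and 17 exceeded 0.1. Levels were centred within each group, which ties these means to each other, so they cannot decide whether the numbers pair mice. No named gene reversed its call, 42 of 883 values under the other alternatives and 56 of 1632 without 1 library lost it, most of them genes lower in rich libraries, cilia genes and mt-Co2. A call was gained in 5 and 1 of these values, by Arc, Egr1 and Mc3r. Genes of a few counts in the poor set limit the precision of the largest folds.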
